A study of Arabidopsis thaliana with 3 samples.

Results

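Chlorophyll in the thylakoid membrane is held by 2 photosystems and by the antenna proteins around them. Photosystem II splits water with the help of a lumenal oxygen-evolving complex, photosystem I reduces ferredoxin, and light-harvesting complex (LHC) proteins pass absorbed energy to both. The reaction centre chains are made in the plastid, while the antenna proteins and many small subunits are encoded in the nucleus, made in the cytosol and imported. Nuclear photosystem and light-harvesting genes were described here in Arabidopsis thaliana. A locus belonged to the set when the first phrase of its deposited annotation named a photosystem, a light-harvesting protein or a chlorophyll A-B binding protein, with the early light-induced genes ELIP1 and ELIP2 left out. The rule used no measured value and found 45 of the 29030 loci on the array. They were carried by 107 spots, 1 spot for 16 of the loci and 2 to 6 spots for the other 29.

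The study compared the mutant pfd4 with its wild type Col-0. PFD4 encodes a subunit of prefoldin, a cytosolic chaperone complex that delivers unfolded actin and tubulin to the chaperonin. Plants were 2 weeks old, were grown at 22 °C in days of 16 h light and 8 h dark, and both genotypes were then held at 4 °C for 24 h, so the values compare the genotypes in the cold and hold no response to cold. Each of 3 arrays took RNA of both genotypes and gave 1 log2 ratio per spot. The dyes were swapped once: pfd4 was labelled with Cy3 and Col-0 with Hyper5 on arrays 1 and 2, and pfd4 with Hyper5 and Col-0 with Cy3 on array 3. The sources used here name neither the pfd4 allele nor the organs taken nor how many plants made up a sample. Values below are on the log2 scale, with pfd4 on top of the ratio. This direction is likely rather than stated: the labels name the dyes alone, and PFD4 (AT1G08780) had -3.08, -2.71 and -2.17 on arrays 1, 2 and 3. With a mean of -2.65 ± 0.46 (SD, n = 3) it too missed the threshold over all loci (unadjusted p = 8.26e-05, adjusted p = 0.887 in limma). If Col-0 was the numerator, every sign turns as a whole. In RNA of whole samples, fewer cells of a type and less RNA per cell cannot be told apart.

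No photosystem or light-harvesting gene passed the test between pfd4 and Col-0, and the medians of the genes took opposite signs on arrays of opposite dye orientation. Arrays 1, 2 and 3 gave medians of -0.18, -0.345 and 0.27 over these genes, against -0.010, 0.010 and 0.0050 over all loci. On array 1 32 of the 45 genes were below 0, as were 50.7% of all loci. On array 2 it was again 32 genes, beside 47.6% of all loci. On array 3 39 genes were above 0, beside 50.2% of all loci. The order negative, negative, positive was found for 23 genes (51.1%) and for 16.8% of all loci. The mirror order, positive on arrays 1 and 2 and negative on array 3, was found for 0 of the 45 genes and for 16.9% of all loci. These orders are of means over the spots of a gene, and some single spots did show the mirror order. Read as Cy3 over Hyper5, the 23 genes were thus negative on all 3 arrays. Array 3 differs from the others in its dyes and in being another biological replicate, and dye and replicate cannot be told apart.

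**Figure D1:**
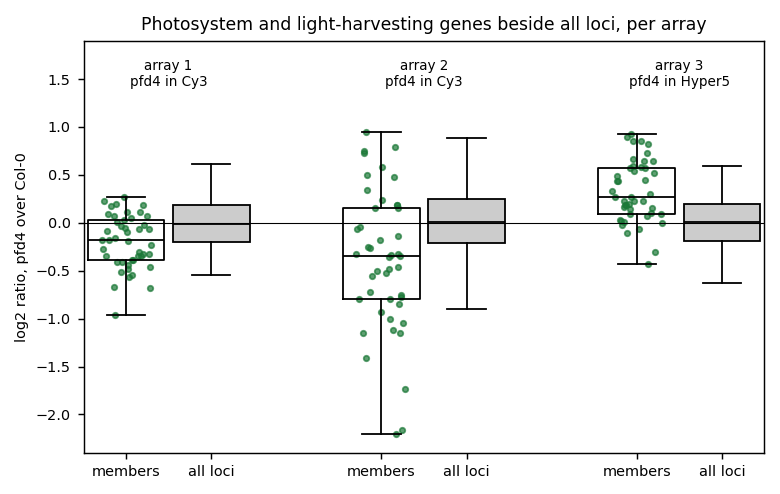
Log2 ratio of pfd4 over Col-0 on each array, for the 45 photosystem and light-harvesting genes (white boxes with a point per gene) left of all 29030 loci (grey boxes). Boxes span the quartiles with the median as a line, whiskers reach the lowest and highest gene for the 45 genes and the 5th and 95th percentile for all loci; the medians of the 45 genes were -0.18, -0.345 and 0.27.

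The mean of the 3 arrays therefore lay near 0 for most genes. The median of the means was -0.072, beside 0.0067 over all loci, and the means ran from -0.76 to 0.296. Of the 45 means 26 were below 0, beside 48.5% of all loci. In 39 of the 45 genes the SD over the arrays was larger than the size of the mean, as in 22543 of the 29030 loci. The median of the means was -0.025 without array 1, 0.08 without array 2 and -0.24 without array 3, so that its sign turned when array 2 was left out. Limma's moderated test with Benjamini-Hochberg adjustment over all loci called 0 of the 45 genes at an adjusted p of 0.05 and 0.00% of all loci. The smallest adjusted p among the 45 genes was 0.887. At an unadjusted p of 0.05 limma left 1 gene below 0, beside 2.58% of all loci, and 0 above 0, beside 2.14% of all loci. Taken as means over spots, 8 genes (17.8%) held the same sign on all 3 arrays, beside 24.3% of all loci. Of these 8 genes 2 were negative, beside 12.1% of all loci, and 6 were positive, beside 12.3%.

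The order of the 45 genes was also compared between arrays. Across the 45 genes, Pearson's r was 0.458 between arrays 1 and 2 (Spearman's rho 0.44). It was -0.535 between arrays 1 and 3 (rho -0.571) and -0.418 between arrays 2 and 3 (rho -0.369). Over all loci r was 0.401, -0.269 and -0.035 for these pairs. These correlations are across genes that share the 3 hybridisations, and genes are not independent replicates.

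Antenna proteins of photosystem II were represented by 12 genes. Their medians were -0.042, -0.341 and 0.243 on arrays 1, 2 and 3, and 5 of the 12 showed the order negative, negative, positive. The LHCB1 and LHCB2 proteins, with LHCB3, build the trimers that are the most abundant antenna of the membrane. LHB1B1 (AT2G34430) had -0.2275, 0.185 and 0.30 and its neighbour on the chromosome LHB1B2 (AT2G34420) had -0.055, -0.4825 and 0.010, so the adjacent LHCB1 genes differed in sign on array 2. LHCB2.1 (AT2G05100) had -0.030, -0.355 and 0.020. LHCB2.2 (AT2G05070) had -0.087, -0.3275 and -0.065 and was 1 of the 2 genes of the set with a negative mean over spots on every array. Its 4 spots differed in sign, from -0.39 to 0.3 on array 1, from -0.9 to 0.32 on array 2 and from -0.13 to 0.05 on array 3. LHCB2.3 (AT3G27690) stood apart from LHCB2.1 and LHCB2.2, with -0.685, -0.52 and 0.545. LHCB3 (AT5G54270) had -0.020, -0.4625 and 0.585. Near-identical relatives such as the LHCB1 genes can hybridise to each other's spots, and this was not tested.

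The monomeric antenna proteins CP29, CP26 and CP24 link the trimers to the core of photosystem II. CP29 is encoded by 3 LHCB4 genes, and these 3 differed in sign on array 2. LHCB4.3 (AT2G40100) had -0.46, -1.73 and 0.73, the lowest mean of the antenna genes at -0.49 ± 1.23 (SD, n = 3, adjusted p = 0.928 in limma). LHCB4.2 (AT3G08940) had -0.3425, 0.725 and 0.4325, the highest mean of the class at 0.27 ± 0.55 (SD, n = 3, adjusted p = 0.916 in limma). LHCB4.1 (AT5G01530) had 0.23, -0.322 and -0.11. LHCB5 (AT4G10340), which encodes CP26, had 0.070, -1.007 and 0.093, so that array 2 alone gave its mean of -0.28 ± 0.63 (SD, n = 3). LHCB6 (AT1G15820), which encodes CP24, had 0.013, 0.157 and 0.187, but its 3 spots differed in sign. They ran from -0.42 to 0.82 on array 1, from -1.02 to 1.58 on array 2 and from -0.45 to 0.6 on array 3. AT1G76570, listed as LHCB7 in the gene table, had 0.20, -0.18 and 0.64.

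Antenna proteins of photosystem I were represented by 5 genes. All 5 were negative on array 1 and positive on array 3, with medians of -0.483, -0.34 and 0.823. LHCA2, LHCA3 and LHCA4 belong to the belt of antenna proteins bound to the side of photosystem I. LHCA2 (AT3G61470) had -0.543, -1.047 and 0.823, and all 3 of its spots followed that order. LHCA3 (AT1G61520) had -0.483, -1.15 and 0.59, the lowest mean of the class at -0.35 ± 0.88 (SD, n = 3). LHCA4 (AT3G47470) was near 0 on arrays 1 and 2, at -0.097 and -0.063, and at 0.857 on array 3. Lhca5 (AT1G45474) and Lhca6 (AT1G19150) encode minor proteins that join photosystem I to the NADH dehydrogenase-like complex. Lhca5 had -0.57, 0.19 and 0.93, the highest value of the 45 genes on array 3. Lhca6 had -0.41, -0.34 and 0.67. AT5G28450, annotated only as a chlorophyll A-B binding protein, had -0.385, -0.80 and 0.90.

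**Figure D2:**
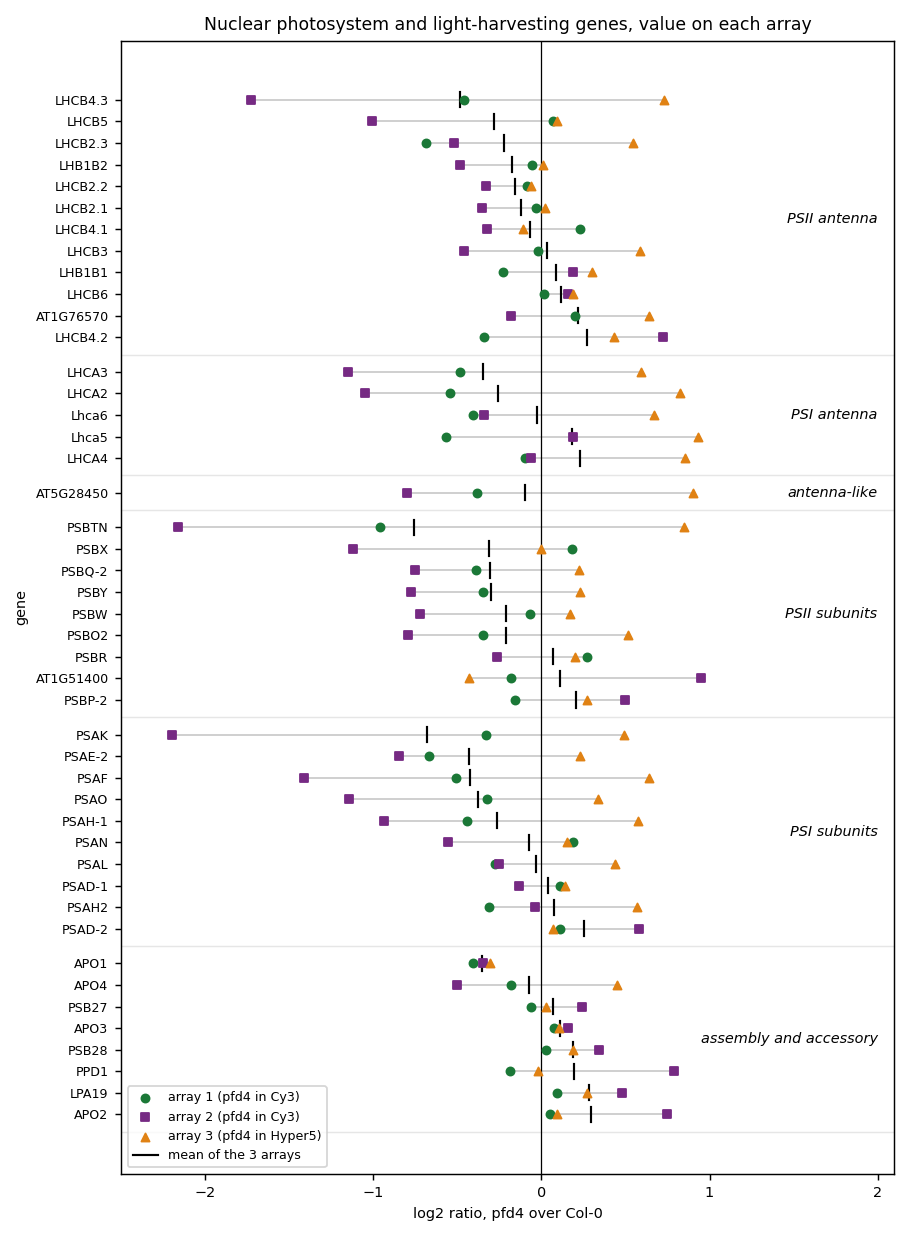
Log2 ratio of pfd4 over Col-0 (x axis) for each of the 45 genes (y axis), grouped by role, with circles for array 1, squares for array 2, triangles for array 3 and a black bar for the mean. Triangles lie right of the circles and squares in most antenna and subunit genes, as in LHCA2 at -0.543, -1.047 and 0.823, while APO1 had -0.405, -0.345 and -0.305.

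Subunits of photosystem I were 10 genes, with medians of -0.318, -0.702 and 0.385, and 7 of the 10 showed the order negative, negative, positive. PSAK (AT1G30380), a small membrane subunit that binds chlorophyll on the antenna side, had -0.33, -2.20 and 0.49. Its value on array 2 was the lowest of the 45 genes there, and its mean was -0.68 ± 1.38 (SD, n = 3, adjusted p = 0.901 in limma). PSAF (AT1G31330), which docks plastocyanin, had -0.51, -1.41 and 0.64. The subunits that face ferredoxin in the stroma differed in their gene values: PSAE-2 (AT2G20260) had -0.67, -0.85 and 0.23, whereas PSAD-1 (AT4G02770) had 0.11, -0.134 and 0.142. Of the 5 spots of PSAD-1, 3 showed the order of PSAE-2, which had 1 spot. PSAD-2 (AT1G03130), the twin of PSAD-1, had 0.11, 0.583 and 0.070 and the highest mean of the class, 0.25 ± 0.29 (SD, n = 3, adjusted p = 0.888 in limma). Of the 10 photosystem I subunit genes of the set, it was the 1 with a positive mean over its spots on all 3 arrays. Its 3 spots differed in order, however. Spot 1 had 0.48, 1.34 and -0.45, spot 2 had -0.35, -0.26 and 0.54, and spot 3 had 0.2, 0.67 and 0.12.

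PSAH, PSAL and PSAO form the side of photosystem I to which mobile antenna trimers bind in state transitions. PSAH-1 (AT3G16140) had -0.44, -0.935 and 0.575, and its duplicate PSAH2 (AT1G52230) had -0.31, -0.040 and 0.57, so the pair agreed on arrays 1 and 3 and parted on array 2. PSAL (AT4G12800) had -0.275, -0.255 and 0.435 and PSAO (AT1G08380) had -0.325, -1.145 and 0.335. PSAN (AT5G64040), a lumenal subunit, had 0.185, -0.555 and 0.155.

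Photosystem II subunits were 9 genes, with medians of -0.18, -0.755 and 0.225, and 5 of the 9 showed the order negative, negative, positive. PSBTN (AT3G21055), a low-mass subunit, had -0.96, -2.16 and 0.85. It was the lowest of the 45 genes on array 1, and its mean of -0.757 ± 1.52 (SD, n = 3, adjusted p = 0.897 in limma) was the lowest of the whole set with the widest spread. The oxygen-evolving complex is built from PSBO, PSBP and PSBQ proteins. PSBO2 (AT3G50820) had -0.345, -0.795 and 0.515 and PSBQ-2 (AT4G05180) had -0.39, -0.755 and 0.225, whereas PSBP-2 (AT2G30790) had -0.16, 0.50 and 0.27 and the highest mean of the class, 0.20 ± 0.34 (SD, n = 3). The small membrane subunit genes PSBY (AT1G67740) and PSBW (AT2G30570) had means of -0.298 ± 0.504 and -0.21 ± 0.46 (SD, n = 3). PSBX (AT2G06520) had 0.18, -1.12 and 0, and PSBR (AT1G79040) had 0.27, -0.2625 and 0.1975. AT1G51400, annotated as a 5 kD photosystem II protein, had -0.18, 0.95 and -0.43 and was the 1 subunit gene with a negative value on array 3.

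Genes for assembly, repair and accessory proteins made up the remaining 8 genes. Their medians were -0.015, 0.29 and 0.098. Among the 8, 1 gene, APO4 (AT3G21740), was negative on arrays 1 and 2 and positive on array 3, beside 16.8% of all loci. Of the 37 antenna and subunit genes 22 showed that order. The roles were assigned after the values were seen, and the difference between the classes was not tested. APO1 (AT1G64810), an RNA-binding protein of the plastid needed for the accumulation of photosystem I, had -0.405, -0.345 and -0.305. It was the other gene with 3 negative values, its mean of -0.352 ± 0.050 (SD, n = 3) stood clear of its spread, and its p was the smallest of the set (unadjusted p = 0.0333, adjusted p = 0.887 in limma). Its relatives APO2 (AT5G57930) and APO3 (AT5G61930) were positive on all 3 arrays in the mean over their spots, though not in every spot. The photosystem II assembly genes LPA19 (AT1G05385) and PSB28 (AT4G28660), with 1 spot each, were positive on all 3 arrays too. APO2 had 0.050, 0.747 and 0.090, a mean of 0.296 ± 0.391 (SD, n = 3). Its 3 spots ran from -0.1 to 0.15 on array 1 and from -0.1 to 0.21 on array 3. LPA19, which acts in the maturation of the D1 protein, had 0.090, 0.48 and 0.27, a mean of 0.28 ± 0.195 (SD, n = 3, adjusted p = 0.887 in limma). PSB28 had 0.030, 0.34 and 0.19, and APO3 had a mean of 0.11 ± 0.043. The 4 spots of APO3 ran from -0.12 to 0.25 on array 1 and from -0.22 to 0.53 on array 3. PSB27 (AT1G03600), which binds photosystem II during assembly, had a mean of 0.070 ± 0.154 and PPD1 (AT4G15510), a PsbP-domain protein known from photosystem I assembly, 0.19 ± 0.52 (SD, n = 3).

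**Figure D3:**
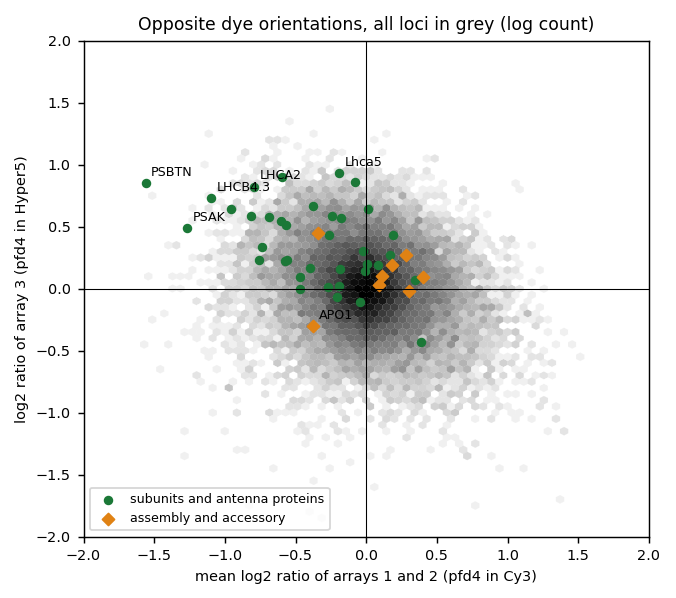
Mean log2 ratio of arrays 1 and 2 (x axis) against the log2 ratio of array 3 (y axis), both pfd4 over Col-0, with all loci as grey cells shaded by log count, the 37 antenna and subunit genes as green circles and the 8 assembly and accessory genes as orange diamonds. Green circles gather in the upper left, with PSBTN at -0.96 and -2.16 on arrays 1 and 2 and 0.85 on array 3.

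A limma fit with a dye term set array 3 against arrays 1 and 2. Its dye coefficient therefore holds both the dye and replicate 3, which cannot be told apart. In that fit the dye coefficient was the mean of arrays 1 and 2 minus array 3, divided by 2. It was below 0 in 37 of the 45 genes, beside 14450 of the 29030 loci. Its median was -0.282 over the 45 genes against 0.0013 over all loci. At an adjusted p of 0.05 limma called 0 of the 45 genes and 0.00% of all loci for this coefficient, and the smallest adjusted p was 0.407 in both. At an unadjusted p of 0.05 the coefficient of 12 of the 45 genes passed, all 12 below 0, beside 5.05% of all loci below 0 and 5.75% above. LHCA2 had a coefficient of -0.81 (unadjusted p = 0.00914 in limma), PSBTN -1.205 (unadjusted p = 0.015) and Lhca6 -0.52 (unadjusted p = 0.0163). The other coefficient of this fit, read as genotype, had a median of 0.014 over the 45 genes, and it too rests on array 3 alone for 1 of the dye orientations. With the sign of array 3 turned, so that all 3 arrays were read as Cy3 over Hyper5, limma called 0 of the 45 genes and 0.00% of all loci at an adjusted p of 0.05. At an unadjusted p of 0.05, 16 of the 45 genes were then below 0, beside 6.46% of all loci, and the smallest adjusted p was 0.215 for LHCA2. Which sign array 3 should carry was not tested beyond PFD4, which was negative on it as deposited.

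Larger values were found on single arrays. On array 2 9 of the 45 genes were at -1 or below, beside 4.12% of all loci. On array 3 15 genes (33.3%) were at 0.5 or above, beside 7.57% of all loci. The log2 ratios of all loci spread more widely on array 2 (SD 0.55) than on arrays 1 (0.36) and 3 (0.37).

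Spots of the same gene did not always agree. Over the 29 genes with several spots, the pooled SD between spots of a gene was 0.419, 0.618 and 0.426 on arrays 1, 2 and 3, beside an SD between the 45 genes of 0.28, 0.736 and 0.324. In 7 of these genes every spot showed the order negative, negative, positive, in 5 no spot did, and in 17 some did. Of the 107 spots 49 (45.8%) showed it, beside 18.3% of all locus spots. The mirror order, absent from the gene means, was present in single spots of several genes. Among them were 1 spot of LHCB6 with 0.82, 1.58 and -0.45 and 1 spot of LHCB3 with 0.76, 0.48 and -0.37. LHCA4 had 6 spots: on array 3 they ran from 0.05 to 1.64, and the spots at -0.53 and -0.50 on array 1 were those at 1.37 and 1.64 on array 3. The 5 spots of PSAD-1 ran from -0.53 to 1.32 on array 1 and from -0.72 to 0.68 on array 3. There the spot that was highest on array 1 was lowest on array 3, and the gene mean near 0 joined 3 spots of the common order with 2 of the mirror order. The 4 spots of LHCB4.2 stayed together, between -0.68 and -0.18 on array 1, 0.44 and 0.94 on array 2, and 0.14 and 0.57 on array 3.

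**Figure D4:**
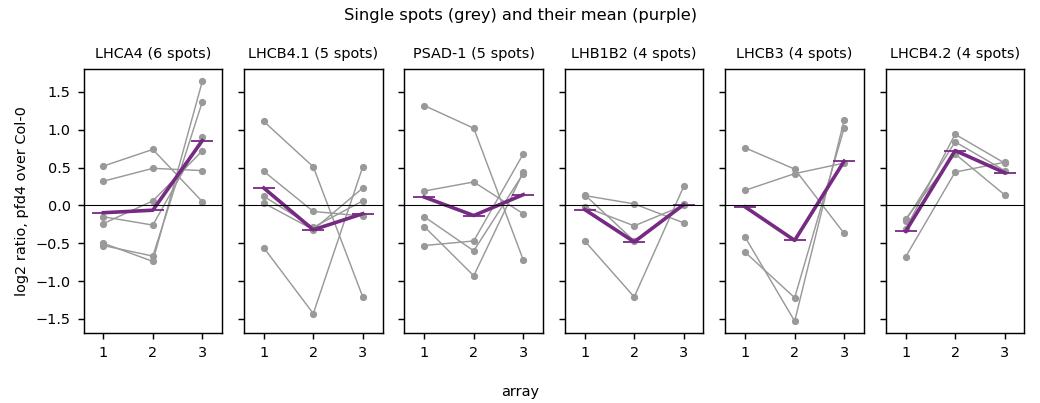
Log2 ratio of pfd4 over Col-0 (y axis) of single spots (grey, the lines join the same spot across arrays) and their mean (purple) on arrays 1, 2 and 3 (x axis), for the genes with the most spots, LHCA4, LHCB4.1 and PSAD-1, and for 3 antenna genes with 4 spots, all 6 chosen after their values were seen. The spots of PSAD-1 ran from -0.53 to 1.32 on array 1, while those of LHCB4.2 stayed between -0.68 and -0.18.

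Photosystem and antenna genes whose annotation lacks the words of the rule gave a further view. From a list of known subunits written by locus, 11 lay outside the rule, among them the remaining members of the duplicated pairs. Their medians were -0.082, -0.795 and 0.275 on arrays 1, 2 and 3, and 7 of the 11 showed the order negative, negative, positive. LHCB1.1 (AT1G29920) had 0.020, -0.367 and 0.133, LHCB1.2 (AT1G29910) -0.107, -0.613 and 0.49, and LHCB1.3 (AT1G29930) -0.082, -0.827 and 0.381. PSBO1 (AT5G66570), the partner of PSBO2, had -0.083, -0.777 and 0.223, and PSAE1 (AT4G28750), the partner of PSAE-2, had -0.027, -0.9875 and 0.1125. PSBP1 (AT1G06680) had -0.088, -1.092 and 0.24, unlike PSBP-2, which was positive on array 2. PSBQ1 (AT4G21280) had 0.060, -0.795 and 0.275. LHCA1 (AT3G54890) had 3 positive values, 0.216, 0.356 and 0.102, each a mean over 5 spots of both signs. Those spots ran from -0.41 to 0.81 on array 1, from -1.08 to 1.14 on array 2 and from -0.54 to 0.7 on array 3. PSBS (AT1G44575), needed for the quenching of excess light energy, had -0.030, 0.58 and 0.595 and the highest mean of the 11, 0.38 ± 0.36 (SD, n = 3). Its 2 spots ran from -0.14 to 1.3 on array 2 and from -0.08 to 1.27 on array 3. The lowest mean of the 11 was that of PSAG (AT1G55670), -0.54 ± 0.94 (SD, n = 3), with -0.4425, -1.522 and 0.3475. Limma called 0 of the 11, and 0 passed at an unadjusted p of 0.05.

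The genes left out by name, ELIP1 and ELIP2, encode chlorophyll-binding proteins made for a short time under light stress. ELIP1 (AT3G22840) had -0.27, -0.60 and 1.72, a dye coefficient of -1.077 (unadjusted p = 0.00199 in limma), and ELIP2 (AT4G14690) had 0.59, -0.050 and 0.48.

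Other photosynthesis genes were read from lists written by locus, and limma called 0 members of any of them. Of the electron transport and ATP synthase genes 6 of 13 showed the order negative, negative, positive, with medians of -0.148, -0.17 and 0.27. DRT112, a plastocyanin gene, had the lowest mean, -0.48 ± 1.09, and FNR2, a ferredoxin-NADP reductase gene, the highest, 0.62 ± 0.82 (SD, n = 3). Calvin cycle genes had medians of -0.075, -0.20 and 0.107, with 7 of 19 in that order. Among them RBCS2B, a small subunit of Rubisco, had 0.24, -1.842 and 0.252, and RPE, which encodes ribulose-phosphate epimerase, had the highest mean, 0.37 ± 0.27 (SD, n = 3). Neither list had a member at an unadjusted p of 0.05.

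Genes that serve the photosystems without being part of them were read in 3 further lists, and their differences from the photosystem genes were not tested. Chlorophyll synthesis genes had medians of -0.19, 0.653 and 0.12, with 4 of 15 in the order negative, negative, positive and 4 in the mirror order. CH1, whose enzyme makes chlorophyll b, had 1.02, 2.18 and -1.42, the mirror of LHCA2, and GUN5, a subunit of magnesium chelatase, had -0.83, -0.59 and 0.12. Genes for antenna import, kinases and thylakoid proteases had medians of 0.050, 0.375 and 0.013, with 1 of 14 in the first order and 5 in the mirror order. CPSRP54, which guides antenna proteins to the membrane, had 0.81, 1.41 and -0.17, and FTSH8, a thylakoid protease gene, had -0.29, -2.31 and -0.030. Regulators of photosynthesis genes had medians of 0.40, 0.84 and -0.15, with 0 of 9 in the first order and 4 in the mirror order. The transcription factors GLK1 and GLK2, which activate antenna and chlorophyll genes, parted: GLK1 (AT2G20570) had -0.60, 0.42 and 0.94, and GLK2 (AT5G44190) had 0.58, 0.47 and -0.37. Of the sigma factors of plastid RNA polymerase, SIG4 had the highest mean, 0.47 ± 0.43, and SIG5 the lowest, -0.16 ± 1.11 (SD, n = 3). Limma called 0 members of these 3 lists, and 0 passed at an unadjusted p of 0.05.

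The plastid genes for the cores of the same photosystems took another course. The 11 plastid-encoded subunits had medians of 0.33, -1.84 and 0.14, with 2 of 11 negative on arrays 1 and 2 and positive on array 3. Their median on array 1 was above that of the nuclear genes and their median on array 2 below it, and this difference was not tested. psaB had 2.19, 0.11 and 0.24, the highest mean, and psaC had -0.46, -2.38 and -0.23, the lowest. The gene psbH, read from 1 spot, had 1.11, 0.25 and 0.65. Limma gave it the 1 unadjusted p of the list under 0.05 (unadjusted p = 0.0224, adjusted p = 0.887), beside 2.14% of all loci that passed above 0. The plastid list was written after the values were seen.

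**Figure D5:**
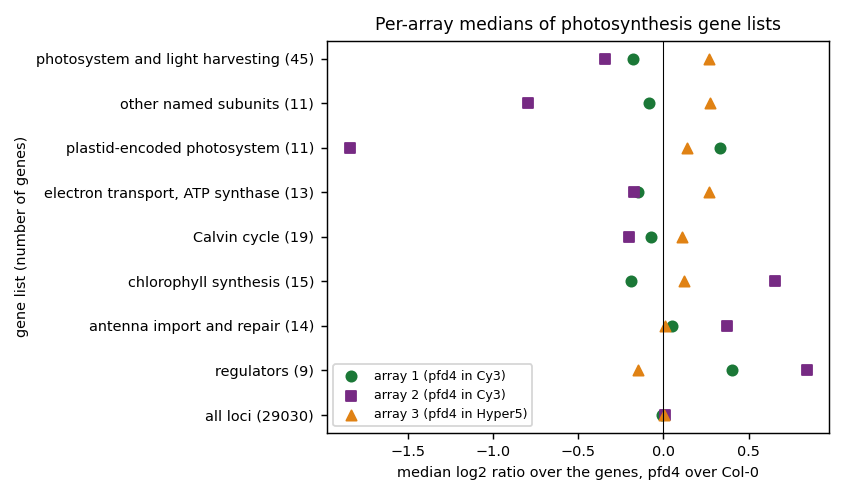
Median log2 ratio of pfd4 over Col-0 (x axis) of 8 photosynthesis gene lists and of all loci (y axis, number of genes in brackets), with circles for array 1, squares for array 2 and triangles for array 3. Array 3 lies right of arrays 1 and 2 for the 45 photosystem and light-harvesting genes (0.27) and left of them for the 9 regulators (-0.15).

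Markers of other organs and of leaf age were read because the organs taken are not stated, and as ratios they show a difference between genotypes, not whether an organ was present. Root markers had medians of -0.040, -0.26 and 0.16 over 9 genes, from SCR with a mean of -0.305 ± 0.463 to RHD6 with 0.12 ± 0.14 (SD, n = 3). Floral organ markers had -0.195, -0.225 and -0.065 over 8 genes, from AP1 at -0.44 ± 0.30 (unadjusted p = 0.0468, adjusted p = 0.887 in limma) to LFY at 0.057 ± 0.068 (SD, n = 3). Senescence markers had -0.155, 0.34 and -0.22 over 9 genes, from NAP at -1.53 ± 1.47 (unadjusted p = 0.0466, adjusted p = 0.887 in limma) to PPH, a chlorophyll breakdown enzyme, at 0.457 ± 1.25 (SD, n = 3). Limma called 0 genes of these marker lists, and 2.58% of all loci passed below 0 at an unadjusted p of 0.05. The medians of the root markers thus had the signs of those of the photosystem genes on all 3 arrays, with 3 of 9 root markers, 2 of 8 floral and 0 of 9 senescence markers negative on arrays 1 and 2 and positive on array 3, and the part of plant make-up, dye or a single array in the photosystem values was not tested.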

How the data were processed

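The authors deposited normalized log2 ratios, 1 per spot and array, made with limma per the submitters' processing notes. The sources used here give neither its version and settings nor the log base and the numerator. Base 2 was taken because limma writes log2 ratios. Signal intensities were not used here, so brightness over background is unknown, and having 3 arrays limits the precision. The 2 deposited tables agreed at all 45220 spots.

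The values of the 38613 locus spots were averaged per locus, which gave 29030 loci. Each locus was tested with limma 3.58.1 in R 4.3.3 (lmFit and eBayes, mean of 3 ratios against 0, two-sided, Benjamini-Hochberg over all loci, threshold 0.05). A dye term, array weights, scaling, single spots, the second table, the sign of array 3 and leaving out arrays were alternatives. Scaling used median absolute values. Errors are SDs over 3 arrays. Figures were drawn with matplotlib 3.10.9.

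The members and lists were chosen with earlier results of these data known, and the plastid list and the roles after the values were seen. Named in full were the 5 smallest p in each direction, class extremes, all LHC genes, duplicated subunits, PFD4, ELIP and GLK genes, and list extremes. Symbols came from a RefSeq gene table of TAIR10.1, in which all 45 loci were found. The sources used here name no build for the array, so coordinates and sequences are not used here.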

Additional observations from a re-analysis of the deposited data

Results flagged for a closer look

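The median log2 ratio of the 45 photosystem and light-harvesting genes was -0.18 on array 1 and -0.345 on array 2, where pfd4 carried Cy3, and 0.27 on array 3, where pfd4 carried Hyper5. What drew attention is that both arrays of one dye orientation lay below 0 and the array of the other lay above. The difference between the orientations was not tested for the median, since only 1 array has the second orientation.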

How the results depend on the processing

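Limma called 0 of all loci and 0 of the 45 genes at an adjusted p of 0.05 without each array in turn, with a dye term, array weights, scaling, the first spot of each locus, the second table and the sign of array 3 turned. Centring the arrays and changing the members were run for the median alone. At an unadjusted p of 0.05 limma had 1372 loci, and from 476 without replicate 2 to 3878 with the sign of array 3 turned. Of the 45 genes 16 passed it, all below 0, with the sign of array 3 turned (smallest adjusted p = 0.215). Beside them stood 6.46% of all loci below 0, and those 3878 of 29030 loci in either direction. Without replicate 3 it was 13 of the 45 genes, all below 0, beside 3724 of 29030 loci in either direction, where the loci below 0 were not counted alone. Under the other settings it was 0 or 1 gene. The median of the means was -0.072 and ran from -0.24 to 0.08 without 1 array in turn, was -0.31 with the sign of array 3 turned, 0.014 with a dye term, and between -0.125 and -0.046 under the other settings. These include 2 chosen after seeing the data, -0.086 with the 11 known subunits added and -0.095 over the genes with several spots. The count of genes with 1 sign on all arrays, 8 of 45, was 23 with the sign of array 3 turned (33.8% of all loci) and 14, 15 and 31 without array 1, 2 and 3, where only 2 arrays had to agree and 46.4%, 41.4% and 58.9% of all loci did. The test of the 3 ratios against 0 is itself paired, since pfd4 and Col-0 of a replicate share an array, and no further replicate block could be fitted.

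Of 64 named genes 34 kept the sign of their mean without any 1 array. The means of the other 30 crossed 0: PSBP1 from -0.59 to 0.076, Lhca6 from -0.38 to 0.17, DRT112 from -0.97 to 0.11, LHCB1.2 from -0.36 to 0.19, LHCB1.1 from -0.17 to 0.077, LHCB1.3 from -0.45 to 0.15, PSAK from -1.26 to 0.08, CH1 from -0.20 to 1.60, Lhca5 from -0.19 to 0.56, PSAH2 from -0.17 to 0.27. A second group was LHCA3 from -0.82 to 0.053, GLK1 from -0.09 to 0.68, LHB1B1 from -0.021 to 0.24, LHCB4.3 from -1.09 to 0.14, PSAH-1 from -0.69 to 0.068, ELIP1 from -0.43 to 0.72, LHCB2.3 from -0.60 to 0.013, LHCA4 from -0.08 to 0.40, PSBO2 from -0.57 to 0.085, LHCA2 from -0.80 to 0.14. The last were PSAD-1 from -0.012 to 0.13, LHCB5 from -0.47 to 0.082, PSBQ1 from -0.37 to 0.17, PSAE1 from -0.51 to 0.043, LHCB4.1 from -0.22 to 0.06, SIG5 from -0.80 to 0.23, AT5G28450 from -0.59 to 0.26, RBCS2B from -0.80 to 0.25, LHCB3 from -0.24 to 0.28, PSBO1 from -0.43 to 0.07. Under the dye term 4 means changed sign, to 0.15 for Lhca6, 0.065 for LHCB1.2, 0.014 for LHCA2 and 0.15 for AT5G28450. With array weights 3 did, to -0.025 for PSAH2, -0.030 for LHCB3 and 0.053 for SIG5. With the first spot of each locus 3 did, to -0.34 for LHCB6, 0.19 for LHCB2.2 and -0.097 for LHB1B1. The cause was not tested.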

Other observations

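Besides the locus spots, 24 spots of other transcripts were annotated with the same words. Their medians were 0.195, -0.17 and 0.0050 on arrays 1, 2 and 3, and 1 of the 24 was negative on arrays 1 and 2 and positive on array 3, a share of 4.17% beside 45.8% of the 107 spots of the photosystem and light-harvesting loci. The difference between the spot types was not tested.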
